A study of Mus musculus with 2 samples.

Results

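The type I interferon-stimulated genes described here are 36 members listed by gene symbol, and they were measured in immune cells sorted from mouse tumours. Of these, 35 had a row among the 32285 genes of the count tables and Mx1 was not analysed here. Tumours were grown under the skin of wild type BALB/c mice from MFC, a cell line from a carcinoma of the mouse forestomach, and cells bearing CD45, the surface protein of all leukocytes, were collected by FACS. The control library came from mice given PBS and the treated library from mice given thonzonium bromide (TB), a cationic surfactant. The protocol attached to both samples gives 50 mg/kg every other day from day 6, with the animals killed on day 10. Age, sex and the number of mice pooled in a library are not in the labels. Each group is 1 library of droplet-based 3' single-cell RNA sequencing, so no difference between the groups has a replicate check, no p-value is given, and every 95% interval covers counting error only.

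Type I interferons are cytokines released when a cell senses foreign or misplaced nucleic acid. They bind a receptor of the chains IFNAR1 and IFNAR2, whose kinases JAK1 and TYK2 phosphorylate STAT2. With IRF9, STAT2 is brought to the interferon-stimulated response element (ISRE) in the promoters of target genes. The members include effectors that block viral RNA and protein (Isg15, the Ifit and Oas families, Rsad2, Isg20, Bst2), sensors of RNA and DNA (Ddx58, Ifih1, Dhx58, Zbp1, Eif2ak2), transcription factors of the pathway itself (Irf7, Irf9, Stat2) and a brake on the receptor (Usp18). In tumours the pathway is best known for its part in the priming of CD8 T cells by dendritic cells.

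RefSeq promoters (GRCm38.p6, 250 bases before to 50 after each start site) were matched by symbol for 29 of the 35 members. No entry was matched for Oas2, Usp18, Rtp4, Zbp1, Dhx58 and Parp14. The letters GAAANNGAAA, the core of an ISRE, were searched on both strands. They occurred in 14 of the 29 member genes (48.3%), against 3.99% of 27025 genes with a promoter entry. The letters TTCNNNGAA, which the interferon-gamma-activated site shares, occurred in 6 of 29 member genes (20.7%), against 9.55% of all genes. Matches are letters in a window and were not tested as binding sites. The sequences below are the 250 bases before the start site of 6 members, in gene orientation with the GAAANNGAAA matches of either strand in capitals. Isg15 (minus strand, chr4:156200819-156201068) and Rsad2 (minus strand, chr12:26456453-26456702) are shown because they were the most abundant members in neutrophils, Ifit3 (plus strand, chr19:34583279-34583528) and Ifit3b (plus strand, chr19:34607707-34607956) because they are neighbouring copies, and Bst2 (minus strand, chr8:71537473-71537722) and Ifi44 (minus strand, chr3:151749911-151750160) because their pattern over cell classes departed most from that of the other members.
Isg15: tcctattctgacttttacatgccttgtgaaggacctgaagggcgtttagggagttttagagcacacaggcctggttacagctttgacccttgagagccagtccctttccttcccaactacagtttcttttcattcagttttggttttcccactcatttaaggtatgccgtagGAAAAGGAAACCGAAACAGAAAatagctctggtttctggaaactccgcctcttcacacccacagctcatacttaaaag
Rsad2: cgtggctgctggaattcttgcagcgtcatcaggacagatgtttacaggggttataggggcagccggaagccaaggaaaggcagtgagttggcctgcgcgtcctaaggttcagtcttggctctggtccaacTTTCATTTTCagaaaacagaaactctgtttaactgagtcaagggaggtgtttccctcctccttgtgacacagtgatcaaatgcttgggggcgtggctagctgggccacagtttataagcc
Ifit3: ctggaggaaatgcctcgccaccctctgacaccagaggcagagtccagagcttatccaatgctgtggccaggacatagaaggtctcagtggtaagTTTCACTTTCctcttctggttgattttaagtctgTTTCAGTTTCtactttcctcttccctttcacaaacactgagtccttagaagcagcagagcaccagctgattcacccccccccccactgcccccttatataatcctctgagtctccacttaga
Ifit3b: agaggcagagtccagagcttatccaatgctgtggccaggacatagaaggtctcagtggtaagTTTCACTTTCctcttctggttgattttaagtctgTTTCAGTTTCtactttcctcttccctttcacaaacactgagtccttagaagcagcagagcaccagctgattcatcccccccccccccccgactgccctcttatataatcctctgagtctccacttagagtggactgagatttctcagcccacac
Bst2: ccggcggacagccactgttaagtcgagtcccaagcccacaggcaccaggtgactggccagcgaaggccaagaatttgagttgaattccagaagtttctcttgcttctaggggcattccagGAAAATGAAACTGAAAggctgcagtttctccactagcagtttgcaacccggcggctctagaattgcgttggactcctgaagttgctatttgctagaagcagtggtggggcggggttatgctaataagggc
Ifi44: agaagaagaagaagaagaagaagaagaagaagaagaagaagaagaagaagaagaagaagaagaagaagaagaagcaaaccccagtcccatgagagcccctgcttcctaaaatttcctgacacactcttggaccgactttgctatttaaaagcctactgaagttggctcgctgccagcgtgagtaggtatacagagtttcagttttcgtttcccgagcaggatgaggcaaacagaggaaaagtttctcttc
Isg15 held 3 overlapping matches, beginning 78, 72 and 66 bases before the start site, and Bst2 held 2 overlapping matches at 130 and 124 bases. Rsad2 held 1 match, on the other strand, at 120 bases. The Ifit3 matches at 156 and 122 bases recurred in Ifit3b at 188 and 154 bases. Ifi44 held none, as did the windows of Ifit2, Irf7, Isg20, Daxx, Samd9l, Sp100, Cmpk2, Herc6, Ifi35, Irf9, Oasl1, Oasl2, Phf11d and Xaf1. Forms of the element with another spacing were not searched, so none means no match to these letters. The group with matches therefore held both Isg15 and Bst2, whose levels peaked in different cell classes.

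Barcodes with at least 200 genes and at most 20% mitochondrial UMIs (unique molecular identifiers, each a counted molecule) were kept, which left 6419 control and 5833 treated cells with 44148296 and 50871432 UMIs. Median depth was 4300 UMIs per control cell and 7259 per treated cell, and 9 barcodes occurred in both libraries. Cells were clustered with the members left out of the genes used, so that the classes were not made from them. Other interferon-responsive genes, such as Cxcl10, were not left out and could still shape the classes. Clusters were named from marker lists, and each name below stands for "like" that type. The 12 named leukocyte classes with at least 30 cells per library held 4394 control and 5137 treated cells. The other 2025 control and 696 treated cells were set aside, among them 413 and 36 erythroid barcodes and 1596 and 604 cells of clusters that met no name. Neutrophils numbered 91 control and 184 treated cells, plasmacytoid dendritic cells 140 and 36, and migratory dendritic cells 77 and 66. Of their markers, 9 of 9 neutrophil, 10 of 10 plasmacytoid and 9 of 10 migratory genes met the marker rule. That rule asks for at least 50 CPM and at least 2-fold the median cluster. The neutrophil gene S100a9 stood at 46206 CPM (the usual scaling of counts to the class total) in control neutrophils and at 56.6 CPM in control monocytes. The class named nonclassical monocyte was shallow, with medians of 1046 and 996 UMIs per cell and of 12.6% and 13.2% mitochondrial UMIs. Of its 7 markers, 5 met the same marker rule, and 1 gene of its list stood among its 10 leading genes. A gate on markers in each cell, used again below, placed 106 of its 558 control and 56 of its 350 treated cells in that type. An unnamed cluster, of 177 control and 7 treated cells, was led by neutrophil and haemoglobin genes, with S100a9 at 7785 and 8856 CPM and haemoglobin at 28.4% of its control UMIs. The class called T cells here is led by Cd3d, Cd3g and T cell receptor genes, with the gamma-delta receptor gene Trdc and the CD8 gene Cd8b1 also among its 10 leading genes. It is what remains beside the regulatory and CD8 T cell clusters and is no clean subset. A gate on markers in each cell counted 565 control and 646 treated CD8 T cells, of which 174 and 378 lay in the CD8 cluster. No doublets were removed.

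By CPM, that is as a share of class RNA, neutrophils led the members in both libraries. Member UMIs per cell before any scaling were not ranked. Median depth was 3341 UMIs in control and 3545 in treated neutrophils. It was 8298 and 10323 UMIs in macrophages and 1046 and 996 in nonclassical monocytes. Where values come in pairs from here on, the control library is given first and the treated library second. The 35 members together took 38014 CPM (37374 to 38662) of control neutrophil RNA and 33456 CPM (33041 to 33875) of treated neutrophil RNA. In control, monocytes followed at 20982 CPM, macrophages at 20130, cDC2 (type 2 conventional dendritic cells) at 19151 and nonclassical monocytes at 15704. Plasmacytoid dendritic cells at 11463 CPM and regulatory T cells at 11446 had overlapping intervals, and below them came T cells at 10605 and migratory dendritic cells at 9978. B cells at 6765 and CD8 T cells at 6667 again overlapped, and NK cells were lowest at 5669 CPM. Counting the unnamed neutrophil and haemoglobin-led cluster with the neutrophils, an alternative chosen after the data were seen, gave 22528 and 32862 CPM. Neutrophils were then still first, but in control by 22528 against 20982 CPM. The 5 highest classes were all myeloid and stood above the lymphocytes, while plasmacytoid and migratory dendritic cells lay in the range of the T cells.

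The order of the treated library was close to this. Macrophages at 20636 CPM stood above monocytes at 18070, nonclassical monocytes at 17452 and cDC2 at 16154. Plasmacytoid dendritic cells at 11281, regulatory T cells at 10073, T cells at 8441, migratory dendritic cells at 8060 and CD8 T cells at 7427 followed. NK cells stood at 5177 and B cells, which were 10th in control, were last at 4550 CPM. Neutrophils were also first in both libraries by the mean log2(CPM + 1) of the members, on which single abundant genes weigh less, with 8.94 and 8.86. On that scale plasmacytoid dendritic cells were 10th in control and 9th in the treated library.

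**Figure D1:**
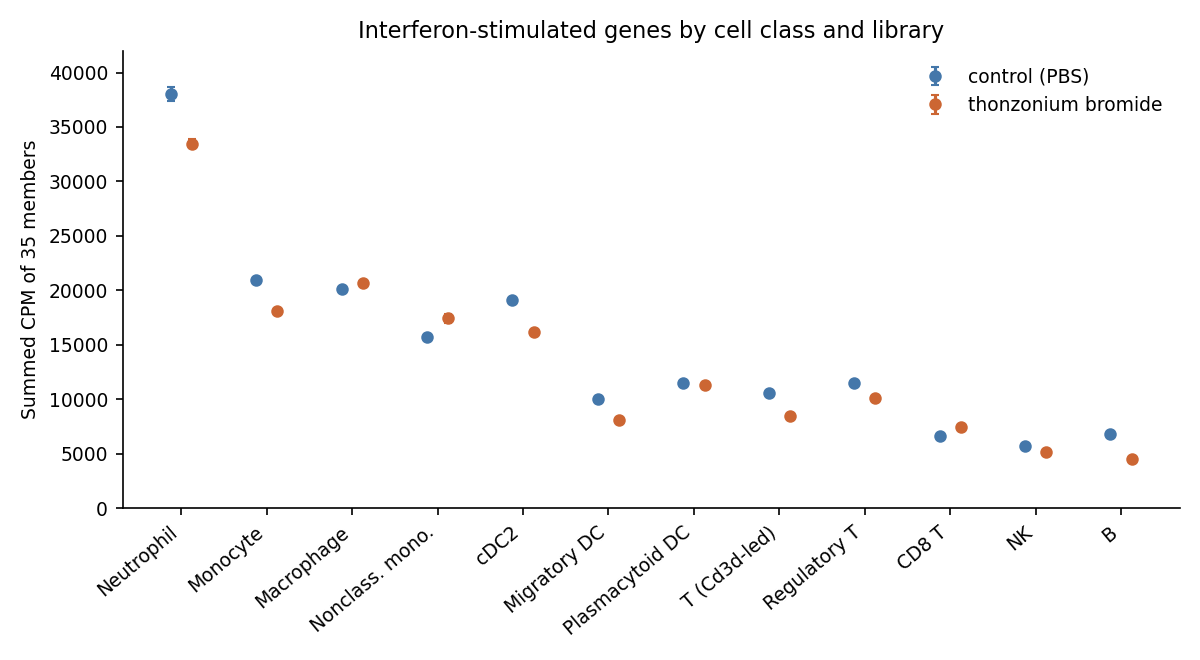
Summed CPM of the 35 members (y axis) in 12 cell classes (x axis) for the control and the thonzonium bromide library, with exact Poisson 95% intervals that are mostly smaller than the points. Neutrophils stand at 38014 and 33456 CPM, above every other class.

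The effectors made most of the neutrophil lead. Rsad2, whose product viperin makes a chain-ending nucleotide, stood at 9068 CPM (8757 to 9388) in control and 7451 CPM (7256 to 7650) in treated neutrophils. That was 5.52-fold and 5.15-fold the next class, and 23.9% and 22.3% of the neutrophil member sum. Isg15, a ubiquitin-like protein attached to other proteins, stood at 6036 and 5242 CPM, 2.13-fold and 1.91-fold the level in macrophages. Of the Ifit genes, which bind foreign RNA, Ifit1 stood at 2447 and 2448 CPM, Ifit3 at 2724 and 2322, and Ifit3b at 1046 and 1044. The exonuclease gene Isg20 stood at 1868 and 1584 CPM in neutrophils, 3.73-fold and 3.08-fold the next class. Cmpk2, a nucleotide kinase gene beside Rsad2 on chromosome 12, stood at 709 and 528 CPM. All of these were clear of the second class in both libraries, that is, with an interval of the ratio that leaves out 1.

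Across the list, neutrophils were the highest of the 12 classes for 16 of 35 control members, of which 12 were clear of the second class. In the treated library they were highest for 15 members, 14 of them clear. Of all genes with enough counts, 5.96% were highest in neutrophils in control and 6.28% in the treated library. Nonclassical monocytes came next, with 6 control and 10 treated members, and macrophages with 4 and 5. The share of all genes highest in either class was not computed, so these counts are not read against it. The highest class was the same in both libraries for 28 of the 35 members. With the neutrophil and haemoglobin-led cluster counted in, neutrophils were highest for 9 control and 15 treated members, and Rsad2 stood at 4856 and 7305 CPM and Isg15 at 3423 and 5137 CPM.

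The neutrophil lead did not extend to every effector family. Of the Oas enzymes, which make the 2'-5' oligoadenylates that switch on RNase L, Oas2 was highest in nonclassical monocytes at 528 and 633 CPM, against 229 and 201 CPM in neutrophils. Oas3 was highest in neutrophils at 314 and 343 CPM, with an interval against the second class that left out 1 in the treated library alone. Oas1a was highest in macrophages at 118 and 141 CPM. The Oas-like genes Oasl1 and Oasl2 were highest in neutrophils, with 562 and 495 CPM and with 1181 and 1129 CPM. Ifit2 ran at like levels over the myeloid classes, with 1159 CPM in control neutrophils, 1208 in monocytes, 1133 in macrophages and 985 in nonclassical monocytes. Of the last 500 bases of the Oas1a transcript, where 3' reads fall, 56.1% of 50-base windows also occur in Oas1g, so reads of these copies may not be told apart. The like share was 25.3% for Phf11d, 19.9% for Trim30a and 14.9% for Ifit3.

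Of the 8 sensors and transcription factors among the members, 6 were highest outside neutrophils in control and 7 in the treated library. Of all genes with enough counts, 5.96% were highest in neutrophils in control and 6.28% in the treated library. Most genes were thus highest outside neutrophils, and these counts do not set the sensors and factors apart from all genes. Irf7, the factor that amplifies type I interferon output, stood at 1576 and 1782 CPM in macrophages and 1512 and 1934 CPM in nonclassical monocytes, against 961 and 774 CPM in neutrophils. Stat2 stood at 789 and 845 CPM in nonclassical monocytes and at 195 and 226 CPM in neutrophils. Irf9, the DNA-binding partner of Stat2, was highest in neutrophils at 192 and 194 CPM but not clear of the second class. Ifih1, which encodes the RNA sensor MDA5, was highest in nonclassical monocytes at 456 and 436 CPM. Ddx58, which encodes the RNA sensor RIG-I, stood at 322 and 304 CPM in neutrophils and 301 and 381 CPM in nonclassical monocytes. The remaining sensors had no class clear of the second in control. Dhx58, which encodes the RNA sensor LGP2, was highest in cDC2 in control at 126 CPM and in macrophages after TB at 124 CPM, and Zbp1, a sensor of Z-form nucleic acid, in monocytes at 791 and macrophages at 793 CPM. Eif2ak2, which encodes the RNA-activated kinase PKR, was highest in nonclassical monocytes at 283 and 244 CPM. Parp14, a mono-ADP-ribosyltransferase, stood at 1512 and 1809 CPM in nonclassical monocytes, 1.72-fold and 2.21-fold the next class. The low depth of that class, its mitochondrial share and its small overlap with the marker gate stand beside these values. The part of each in these values was not tested.

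To rank how closely each member followed the others, the log2(CPM + 1) of each was correlated with the mean of the other members over 24 points (12 classes in 2 libraries). The points share 2 libraries and their depth, and the coefficients are a description. Daxx, a histone chaperone, had the highest coefficient at 0.92, followed by Ifih1 and Ifit2 at 0.91 each. The 5 lowest were Bst2 at -0.07, Ifi44 at 0.06, Samd9l at 0.41, Sp100 at 0.46 and Ifi35 at 0.46. The same 5 were lowest with a pseudocount of 10 and in each library alone. Rsad2 had the second largest spread over classes, with an SD of 1.88 on the log2 scale, and Phf11d the largest with 2.15, while Irf9 and Sp100 had the smallest with 0.34 and 0.35.

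**Figure D2:**
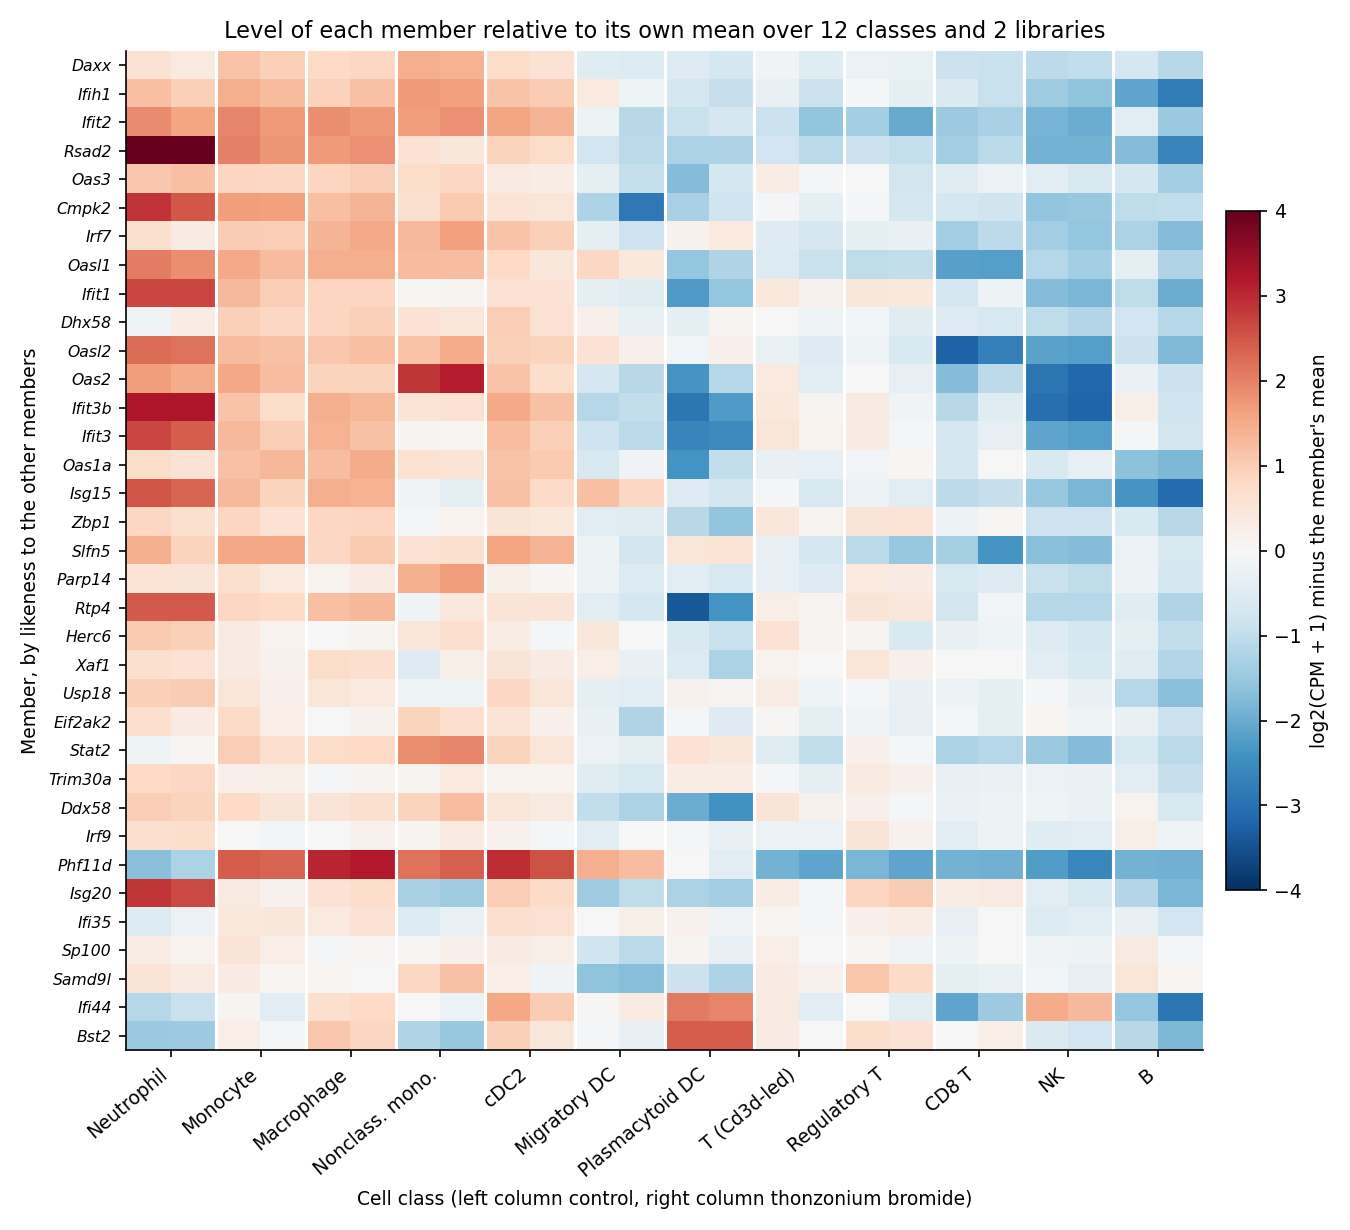
Log2(CPM + 1) of each member minus its own mean over 24 points, for the 12 classes (pairs of columns, control left and thonzonium bromide right), with members ordered from the highest correlation with the others (Daxx, 0.92) to the lowest (Bst2, -0.07). Red cells of the myeloid classes fill most rows, and Bst2 and Ifi44 at the bottom are red in plasmacytoid dendritic cells.

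Bst2 encodes tetherin, which holds budding virus particles on the cell surface and is known as an antigen of plasmacytoid dendritic cells. It stood in plasmacytoid dendritic cells at 4170 CPM (4039 to 4303) in control and at 4236 CPM (4039 to 4440) after TB. Macrophages were second with 1657 and 1441 CPM, so the class lead was 2.52-fold and 2.94-fold. This member alone was 36.4% and 37.5% of the plasmacytoid sum. Neutrophils, which led for Rsad2 and Isg15, had 283 and 289 CPM of Bst2. With every cell thinned to 1000 UMIs, 93.0% of control and 94.1% of treated plasmacytoid dendritic cells had a Bst2 UMI (94.3% and 97.2% unthinned). Of neutrophils, 22 of 87 control and 36 of 180 treated cells had one (50.5% and 40.2% unthinned), as did 5.14% and 5.56% of erythroid barcodes (24.9% and 19.4% unthinned). Haemoglobin took 89.6% of the erythroid UMIs in both libraries, so that low share is no measure of background, and no class here is known to lack Bst2. The neutrophil share is therefore not read as expression. Median depths before thinning were 5621 and 10691 UMIs in plasmacytoid dendritic cells, 3341 and 3545 in neutrophils and 9469 and 13368 in erythroid barcodes.

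Ifi44, a GTP-binding protein gene, also peaked in plasmacytoid dendritic cells, with 346 CPM (309 to 386) in control and 317 CPM (265 to 377) after TB. Its second class was cDC2 at 239 CPM in control and NK cells at 201 CPM in the treated library. NK cells, which had the lowest or the second lowest member sum, thus ranked among the highest for Ifi44, with 230 and 201 CPM, while CD8 T cells had 18.2 and 28.9 CPM. Bst2 and Ifi44 were the only 2 members highest in plasmacytoid dendritic cells in either library. Of all genes, 12.9% were highest there in control and 13.1% in the treated library, so that count of 2 in 35 lay under the share of all genes. Of Ifit3, Rtp4 and Oas1a, plasmacytoid dendritic cells had the lowest control level of the 12 classes, with 68.1, 16.2 and 8.65 CPM.

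Phf11d, a PHD finger gene, split the myeloid cells themselves. It stood at 392 and 428 CPM in macrophages, 367 and 275 in cDC2, 257 and 238 in monocytes and 214 and 249 in nonclassical monocytes, and at 14.1 and 18.8 CPM in neutrophils (5 and 14 UMIs). The T, NK and B classes had between 6.80 and 12.4 CPM. The neutrophil values lay above that range, with intervals of 4.59 to 33.0 and 10.3 to 31.6 CPM that take in the 12.4 CPM at its top, and under those of the other 4 myeloid classes. Samd9l, a restriction factor gene, was highest in control regulatory T cells at 770 CPM (610 treated) and in treated nonclassical monocytes at 815 CPM (643 control). Sp100, a nuclear body protein gene, spanned from 267 CPM in migratory dendritic cells to 657 CPM in monocytes in control, with B cells second at 594 CPM. Ifi35 ranged from 108 to 256 CPM over the control classes.

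**Figure D3:**
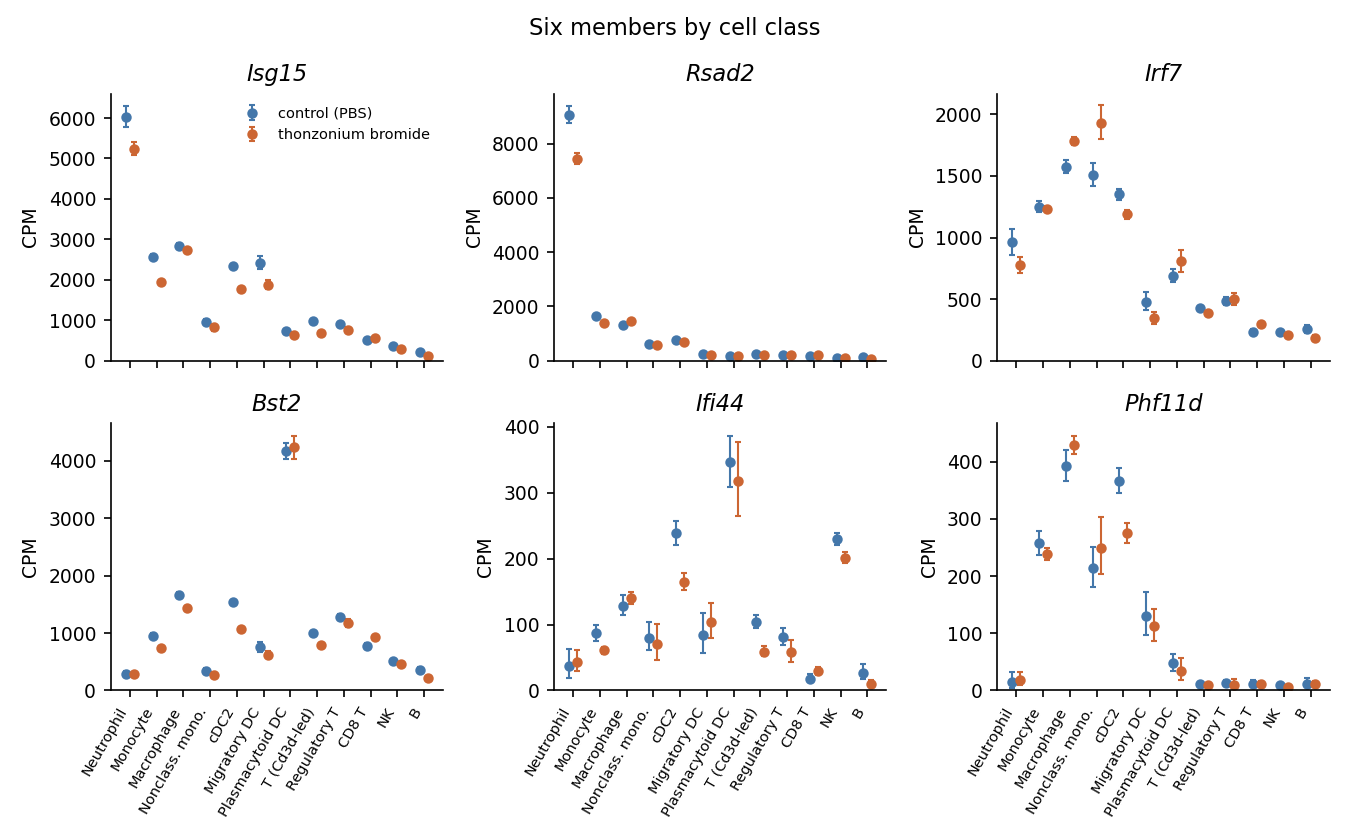
CPM of 6 members (y axes, linear from 0) in the 12 classes for the control and thonzonium bromide libraries, with exact Poisson 95% intervals. Isg15 and Rsad2 peak in neutrophils, Irf7 in macrophages and nonclassical monocytes, Bst2 and Ifi44 in plasmacytoid dendritic cells, and Phf11d in macrophages and cDC2 with neutrophils at 14.1 and 18.8 CPM.

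Migratory dendritic cells, the Ccr7-expressing cells on their way to lymph nodes, had a lower member sum than cDC2 but a like level of Isg15. It stood at 2422 and 1873 CPM, 24.3% and 23.2% of their member sum, against 2334 and 1768 CPM in cDC2. Rsad2 stood at 236 and 190 CPM against 753 and 682 CPM in cDC2. Isg20, at 94.3 CPM, and Trim30a, at 416 CPM, were lowest here of the 12 control classes.

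The classes were not uniform within. Of the 2 monocyte clusters, 1 had 28461 CPM of members in control and 25290 in the treated library, and the other had 8346 and 6459 CPM. Isg15 stood at 3797 and 2958 CPM in the first and at 505 and 333 CPM in the second. The 3 NK clusters ran from 4056 to 7452 CPM in control and from 3924 to 6120 CPM in the treated library. Both libraries therefore held the same ranking of clusters within a class.

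Among single cells thinned to 1000 UMIs, the median neutrophil held 36 member UMIs in control and 23.5 in the treated library, with 10th to 90th percentiles of 9 to 78.4 and 3.9 to 74.1. The variance of these counts was 18.1 and 28.0 times their mean, against 2.66 and 3.5 times in plasmacytoid dendritic cells, whose median was 10 UMIs in both libraries. At least 3 members were seen in 100% of 87 control and 90.6% of 180 treated neutrophils (100% and 95.1% unthinned). In B cells the like shares were 65.5% and 45.7% (96.1% and 86.9% unthinned), and 6.11% and 13.7% of thinned B cells held no member UMI. Erythroid barcodes, which are mostly haemoglobin RNA, had 14.4% and 11.1% (77.5% and 69.4% unthinned), and their own member RNA and free RNA cannot be told apart here. The thinning left out 4 control and 4 treated neutrophils and 4 and 2 B cells that were shallower, while 250 control and 177 treated nonclassical monocytes were left out. The variance over the mean rises with the mean itself. As SD over mean, member content in neutrophils was 0.658 and 0.923, against 0.970 and 1.26 in B cells and 0.985 and 1.15 in migratory dendritic cells.

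**Figure D4:**
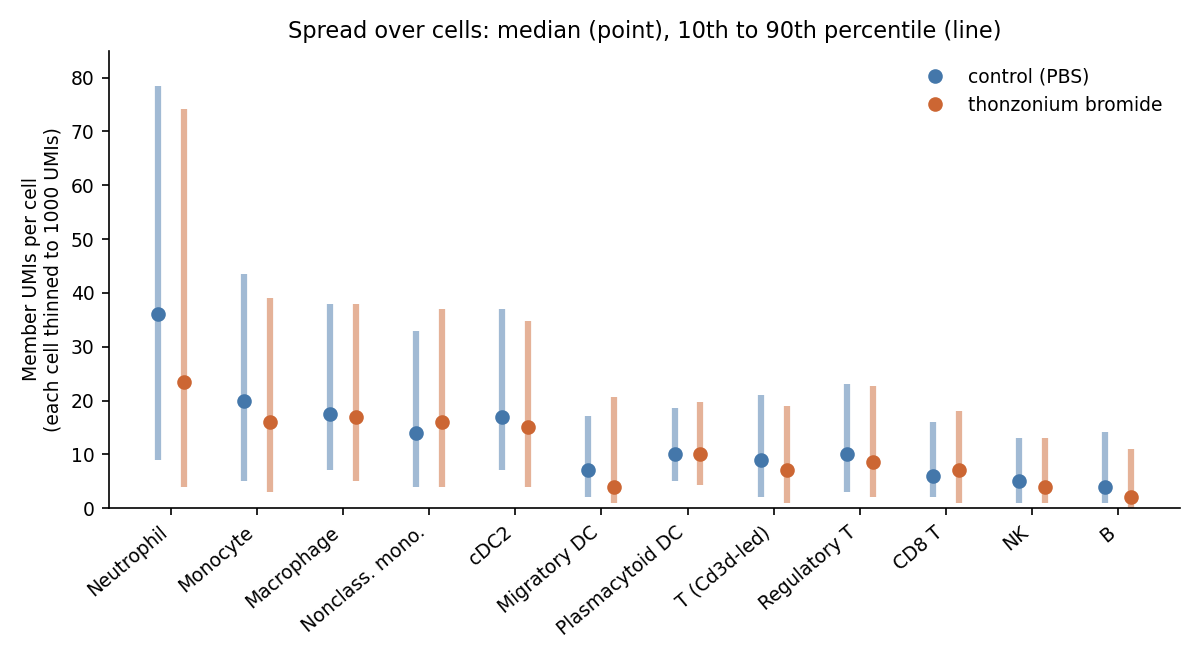
Member UMIs per cell after thinning each cell to 1000 UMIs (y axis) by class (x axis), with the median as a point and the 10th to 90th percentile as a line, for each library. Neutrophils have medians of 36 and 23.5 UMIs and the widest spread, and B cells the lowest medians, 4 and 2 UMIs.

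Between libraries, the member sum was lower after TB in 9 of the 12 classes and higher in 3, with ratios of treated to control from 0.672 to 1.11. The lowest ratios were those of B cells at 0.672 (0.651 to 0.694), T cells at 0.796 (0.785 to 0.807), migratory dendritic cells at 0.808 (0.774 to 0.843) and cDC2 at 0.844 (0.834 to 0.854). Monocytes had 0.861, regulatory T cells 0.880, neutrophils 0.880 and NK cells 0.913. For neutrophils the direction turned when the neutrophil and haemoglobin-led cluster was counted in, to 1.46 (1.43 to 1.49). Plasmacytoid dendritic cells had 0.984 (0.951 to 1.02), an interval that takes in 1. CD8 T cells had 1.11 (1.09 to 1.14), nonclassical monocytes 1.11 (1.08 to 1.15) and macrophages 1.02 (1.01 to 1.04). With a gate on markers in each cell in place of clusters, CD8 T cells had 0.916 and nonclassical monocytes 0.902. With cells thinned to one depth, macrophages had 0.997, so none of the 3 higher sums kept its direction under every alternative. A single number in parentheses after a pair of values is this ratio. A member was called higher or lower when its CPM differed by 1.5-fold or more with a counting interval that leaves out 1, among genes with at least 50 UMIs over both libraries in the class.

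B cells held the most calls. Of 32 members with enough UMIs, 16 were called lower and 0 higher after TB, where 7.16% of 6088 genes were called lower and 3.30% higher. The median log2 ratio of these members was -0.62, against -0.06 over all genes tested, and 31 of the 32 ratios were under 1. Ifit2 stood at 229 CPM in control B cells and at 110 CPM in treated ones (0.482, 0.399 to 0.583). Ifit3b stood at 130 and 63.5 CPM (0.487, 0.379 to 0.628), Ifit1 at 191 and 96.1 CPM (0.503, 0.410 to 0.618) and Rsad2 at 121 and 63.9 CPM (0.531, 0.410 to 0.687). These 4 effectors stood at about 2-fold lower levels, and Isg15 at 204 against 123 CPM. Sp100, the most abundant member in B cells, differed less, with 594 and 453 CPM (0.763). Cmpk2 was the exception, at 45.6 and 47.4 CPM. With the marker gate, 7 members were called lower and the ratio of sums was 0.759. B cells numbered 233 in control and 505 in the treated library, at median depths of 3858 and 3710 UMIs.

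In the T cell class 35 of 35 member ratios were under 1, with a median log2 ratio of -0.32 against -0.05 over all genes. Past 1.5-fold were 3 lower and 0 higher members, with 2.71% of genes called lower and 1.16% higher. Ifit2 stood at 170 and 104 CPM (0.611), Oas2 at 92.8 and 52.9 CPM (0.570) and Ifi44 at 104 and 58.9 CPM (0.569). Regulatory T cells had 4 lower and 0 higher of 34, with 3.99% and 2.83% of genes called. Their 4 were Oas3 at 151 and 89.2 CPM (0.592), Herc6 at 275 and 169 CPM (0.616), Cmpk2 at 91.3 and 57.6 CPM (0.631) and Ifit2 at 120 and 75.7 CPM (0.632). Ifit2, which encodes an RNA-binding tetratricopeptide protein, was called lower in 4 classes, the most of any member. Bst2 was the most abundant member of both classes, with 997 and 794 CPM in T cells and 1285 and 1176 CPM in regulatory T cells.

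In CD8 T cells 5 of 35 members were called higher and 1 lower, where 3.81% of genes were called higher and 4.41% lower. Oas2 stood at 20.9 and 34.3 CPM (1.64), Oas1a at 30.5 and 48.9 CPM (1.60), Ifi44 at 18.2 and 28.9 CPM (1.59) and Ifit3b at 50.8 and 78.7 CPM (1.55). Rtp4, a receptor chaperone gene, stood at 110 and 169 CPM (1.54). Slfn5, a nuclear Schlafen gene, stood at 216 and 105 CPM (0.488, 0.422 to 0.564). The low levels of the first 4 rest on 34 to 95 control UMIs. With the marker gate, which took in 565 control and 646 treated cells in place of 184 and 383, none of the 6 was called, and Oas2, Ifi44 and Ifit3b had ratios of 0.763, 0.829 and 0.982. The lower Slfn5 held its direction there at 0.709. Bst2 was the most abundant member, at 779 and 937 CPM.

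Among dendritic cells, cDC2 had 35 of 35 member ratios under 1 and a median log2 ratio of -0.20, against -0.01 over all genes, but no member past 1.5-fold in either direction, where 3.29% of genes were called lower and 2.28% higher. Counting intervals left out 1 on the lower side for 25 of the 35. No share of all genes under that looser rule is set beside this count, so it is not read as a result about the members. Isg15 stood at 2334 and 1768 CPM (0.757), Bst2 at 1533 and 1074 CPM (0.701) and Ifi44 at 239 and 165 CPM (0.690) in cDC2. Migratory dendritic cells had 2 lower and 0 higher of 32, with 6.36% and 6.80% of genes called. These were Eif2ak2 at 126 and 65.6 CPM (0.522) and Ifit2 at 270 and 142 CPM (0.525), on 38 to 103 UMIs. Both were no longer called with cells thinned to 1000 UMIs.

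Plasmacytoid dendritic cells had 2 higher and 1 lower of 30, with 3.38% and 4.29% of genes called. Oas3 stood at 44.3 and 90.3 CPM (2.04, 1.27 to 3.26), Ifit1 at 79.0 and 132 CPM (1.67, 1.15 to 2.41) and Xaf1, an apoptosis-related gene, at 164 and 100.1 CPM (0.609, 0.420 to 0.865). These rest on 37 to 152 UMIs, and the treated class on 36 cells. With each cell scaled alike, the ratios of Oas3 and Ifit1 were 0.647 and 0.698, and the call on Xaf1 was lost on thinning, with a ratio of 1.01. The neutrophil gene S100a9 stood at 21.6 CPM in control and 674 CPM in treated plasmacytoid dendritic cells, and its part in these values was not tested.

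Neutrophils as clustered, monocytes, macrophages and NK cells had no member past 1.5-fold. In neutrophils 33 members had enough UMIs and the shares of all genes called were 6.95% higher and 7.67% lower. Slfn5 had the lowest neutrophil ratio, 0.695 (0.620 to 0.778), and Rsad2, the most abundant, 0.822 (0.787 to 0.858). With the neutrophil and haemoglobin-led cluster counted in, 12 of 34 members were called higher and 0 lower, where 25.7% of all genes were called higher and 20.8% lower. That cluster gave 177 of 268 control but 7 of 191 treated cells. In monocytes, with 2.46% of genes called higher and 3.71% lower, 32 of 35 ratios were under 1 and the median log2 ratio was -0.23 against 0.00 over all genes. In macrophages, with 2.43% and 3.42% called, 25 of 35 ratios were above 1 and the median was 0.11 against 0.00. Isg15 in macrophages stood at 2839 and 2743 CPM (0.966) and Irf7 at 1576 and 1782 CPM (1.13). In NK cells, with 1.33% and 1.87% called, 29 of 35 ratios were under 1 and the median was -0.14 against -0.01. Nonclassical monocytes had 1 higher and 0 lower of 35, with 5.72% and 6.27% of genes called. That member was Xaf1, at 168 and 279 CPM (1.66), whose ratio with the marker gate was 0.941.

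Over the 12 classes, 8 calls were higher and 27 lower, and 16 of the 27 came from B cells. Of all pairs of a gene and a class, 2.85% were called higher and 4.00% lower. Per member, 14 of the 35 had no call in any class, against 60.6% of the 4104 genes with enough UMIs in at least 9 classes.

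**Figure D5:**
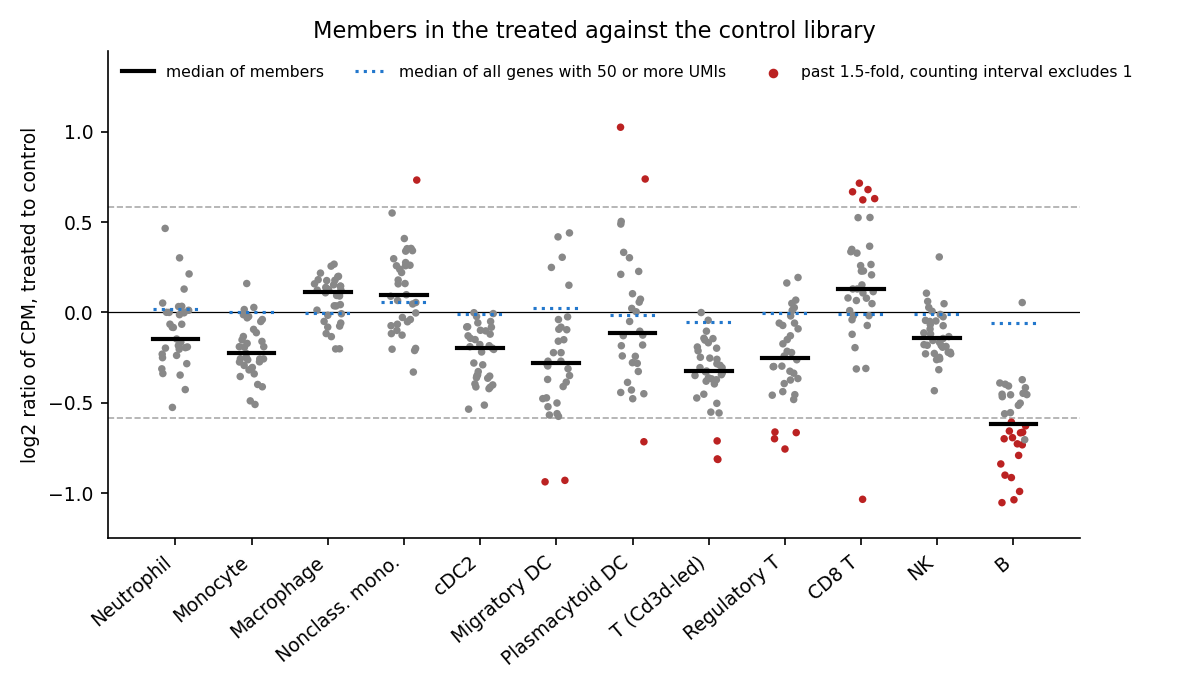
Log2 ratio of treated to control CPM (y axis) of each member with at least 50 UMIs in each class (x axis); red points are past 1.5-fold (dashed lines) with a counting interval that leaves out 1, black bars are medians of the members and dotted blue bars medians of all genes. The member median is lowest in B cells, -0.62 against -0.06 for all genes, and above 0 in macrophages, nonclassical monocytes and CD8 T cells.

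Other genes of the pathway were taken from fixed lists. Of 21 interferon genes, 15 had no UMI in the 12 classes of either library. Over the 12 classes pooled, 3 counts would be 0.102 CPM in control and 0.0693 CPM in the treated library. Plasmacytoid dendritic cells alone held 924551 and 409629 UMIs of all genes, so 3 counts there stand for a higher CPM. Ifnb1, the interferon-beta gene, had 2 control and 15 treated UMIs, of which 12 were in treated macrophages. Interferon-gamma (Ifng) was highest in CD8 T cells, at 315 and 416 CPM. The receptor genes Ifnar1 and Ifnar2 were highest in plasmacytoid dendritic cells, at 263 and 208 CPM and at 384 and 364 CPM, and neither was called in any of 12 classes. Of 116 pairs of a receptor or signalling gene and a class, 1 was called higher and 1 lower, and of 79 pairs of an inhibitor and a class 3 were higher and 0 lower. Sensors and factors had 3 higher and 5 lower of 132. The shares of all gene and class pairs were 2.85% higher and 4.00% lower, so the counts of sensors and factors and the higher calls of inhibitors lay near them, and the receptor and signalling genes under them. Irf8 was lower in CD8 T cells, at 546 and 317 CPM (0.580), and in neutrophils, at 192 and 79.4 CPM (0.413), and higher in regulatory T cells, at 171 and 257 CPM (1.51). Irf1 was higher in neutrophils, at 277 and 555 CPM (2.00).

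Targets biased to interferon-gamma, which signals through a receptor of its own, gave 23 higher and 7 lower calls in 128 pairs, against 2.85% and 4.00% of all pairs. Cxcl9, a chemokine gene that draws T cells, was called higher in 6 of the 6 classes with enough UMIs, with 95.7 and 377 CPM in macrophages (3.94, 3.42 to 4.57) and 78.9 and 266 CPM in monocytes (3.36, 2.89 to 3.94). Ciita, the master factor of MHC class II genes, stood at 34.5 and 64.0 CPM in macrophages (1.85), and the guanylate-binding protein gene Gbp2 at 260 and 584 CPM (2.24). In the same macrophages no type I member was called. The median log2 ratio there was 0.11 over the members and 0.53 over the interferon-gamma-biased targets. The cause of this difference was not tested. Cxcl10, which responds to both kinds of interferon, was called lower in neutrophils at 2891 and 1623 CPM (0.561), in regulatory T cells at 262 and 128 CPM (0.488) and in B cells at 79.3 and 29.0 CPM (0.366). In B cells 3 of 11 such targets were called lower and 0 higher, where 7.16% of genes were called lower. In macrophages 6 of 12 were called higher and 0 lower, where 2.43% of genes were called higher. Nonclassical monocytes also had 6 of 12 called higher and 0 lower, where 5.72% of genes were called higher.

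Outside the list, 5904 genes were ranked by the correlation of their class profile with the mean of the members over the same 24 points. The 10 most alike were Cxcl10 (0.95), Slfn2 (0.94), Socs3 (0.94), Gch1 (0.93), Tlr2 (0.93), Cited2 (0.92), Tgm2 (0.92), Atf3 (0.92), Trafd1 (0.91) and Tnfrsf1a (0.90). Cxcl10 stood at 2891 CPM in control neutrophils, 3245 in monocytes and 162 in NK cells. Tlr2, the receptor for bacterial lipopeptides, stood at 198 CPM in control neutrophils and 1.00 CPM in NK cells.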

How the data were processed

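The deposited files hold raw UMI counts per gene and barcode, which the authors made with Cell Ranger 6.1.2 per the file headers; the submitters' processing notes also name mm10, Seurat 3.0 and R 3.5.3. The labels' protocols name a 10x Genomics 3' library kit. Whether reads were counted by strand is not given in the sources used here. Counting could mix same-strand overlapping genes (Rtp4, Irf9), and without strand also opposite-strand overlaps (Oasl1, Irf7, Usp18, Dhx58, Ifi35, Slfn5), so these members are uncertain to that extent. The deposited tables held 7803 control and 6724 treated barcodes.

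After the filters, counts were scaled to 10000 UMIs per cell, log-transformed, and reduced to 2000 variable genes and 30 principal components without the members and without mitochondrial, ribosomal, haemoglobin, antigen receptor and sex-linked genes. Leiden clusters at resolution 1 were taken from a graph of 15 neighbours (scanpy 1.11.5, leidenalg 0.10.2, Python 3.11.15) over both libraries. Cluster names came from 23 marker lists; the scoring rule (3 or more markers 2-fold over the median cluster with a minimum of 50 CPM) was set after the clusters were seen. Scrublet marked 0 control cells and 1 treated cell, so its calls were not used.

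UMIs were summed per class and library. Levels have exact Poisson intervals, ratios exact conditional binomial intervals (scipy 1.17.1) and shares of cells exact Clopper-Pearson intervals, all at 95%. The call rule was tested on simulated data. The members, marker lists, pathway lists and tests were chosen with earlier results of these data known. Named members are those with the highest and lowest ratios past 1.5-fold in a class (up to 4 each), the most abundant member of a class, the highest class of each member, and the 5 lowest and 3 highest profile correlations. Other members are named by their role. Gene positions and copies came from GENCODE vM21 (GRCm38).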

Additional observations from a re-analysis of the deposited data

How the results depend on the processing

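Neutrophils had the highest member sum in both libraries under every alternative run. The ratios of sums moved beyond their counting intervals in 36 comparisons and were counted as turned in 4 others. A ratio could be counted as turned only where its main interval left out 1. Plasmacytoid dendritic cells did not meet that, so their values of 1.05 and 1.07, above 1, are among the 36. With the unnamed neutrophil and haemoglobin-led cluster counted as neutrophils, an alternative chosen after the data were seen, the neutrophil ratio was 1.46 (turned) and the higher calls over the 12 classes numbered 20. With each cell scaled alike they were 0.792 in neutrophils, 0.851 in monocytes, 0.858 in cDC2, 0.885 in migratory and 1.05 in plasmacytoid dendritic cells, 0.815 in T, 0.914 in regulatory T, 1.06 in CD8 T and 0.872 in NK cells. Thinned to 1000 UMIs per cell they were 0.790 in neutrophils, 0.847 in monocytes, 0.997 in macrophages (turned), 1.07 in plasmacytoid dendritic cells, 0.922 in regulatory T, 1.06 in CD8 T and 0.874 in NK cells. With the marker gate they were 0.937 in neutrophils, 0.943 in monocytes, 0.902 in nonclassical monocytes (turned), 0.817 in cDC2, 0.916 in CD8 T (turned), 0.925 in NK and 0.759 in B cells. Without haemoglobin, mitochondrial and ribosomal UMIs in the total they were 0.874 in monocytes, 0.862 in cDC2, 0.836 in T, 1.09 in CD8 T and 0.724 in B cells. Without the 5% highest doublet scores they were 0.853 in neutrophils, 1.04 in macrophages, 0.868 in cDC2, 0.844 in migratory and 0.927 in plasmacytoid dendritic cells. With at most 10% mitochondrial UMIs they were 0.861 in neutrophils and 1.23 in nonclassical monocytes. Without the most abundant member they were 0.876 in monocytes and 0.856 in cDC2, and with equal cluster weights 0.871 in monocytes and 0.888 in NK cells; the other classes have 1 cluster and so no such value. The 8 higher calls became 5 with each cell scaled alike, 3 thinned, 4 with the marker gate, 4 with at least 200 UMIs, 19 with a fold limit under 1.5 and 1 at 2-fold. The 27 lower calls became 44 with each cell scaled alike, 93 with that lower limit and 3 at 2-fold. Called members whose ratio turned were Xaf1 in nonclassical monocytes (0.941, marker gate), Ifit1 (0.698 scaled alike, 0.745 thinned), Oas3 (0.647 and 0.671) and Xaf1 (1.01 thinned) in plasmacytoid dendritic cells, Oas3 in regulatory T cells (1.10 thinned), and Ifit3b (0.982), Oas2 (0.763) and Ifi44 (0.829) in CD8 T cells with the marker gate. The cause of these shifts was not tested. No paired analysis was possible because each group is 1 library.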

Other observations

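Erythroid barcodes, 413 in control and 36 in the treated library, had 89.6% haemoglobin UMIs in both. With haemoglobin left out of the total, their members summed to 13947 and 12957 CPM. Isg15 stood at 3616 and 2397 CPM of the remaining RNA, Rsad2 at 3493 and 2452 CPM and Isg20 at 3060 and 3074 CPM. These 3 members made up 72.9% and 61.2% of the member UMIs there, while Ifit3 stood at 162 and 256 CPM and Bst2 at 441 and 494 CPM. This composition differs from that of control neutrophils, where Ifit3 stood at 2724 CPM.

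Some clusters were left out of the 12 classes, and their members were picked out after the values were seen. Gamma-delta T cells, with 12 control and 44 treated cells, had member sums of 7846 and 11846 CPM. A cluster led by Rhox5 and Cald1, which is unnamed, had Slfn5 at 16.6 and 71.5 CPM and Ifit2 at 23.5 and 61.5 CPM. The unnamed cluster led by neutrophil and haemoglobin genes, taken alone, had member sums of 8932 and 14254 CPM.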
